A study of Mus musculus with 15 samples.

Results

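Arntl, Npas2, Clock and Cry1 are core genes of the circadian clock. RevErbalpha and RevErbbeta, encoded by Nr1d1 and Nr1d2, are repressors of the nuclear receptor family. Expressed with a biotin tag in RAW cells, a mouse macrophage line, both proteins bound near all 4 genes. The genes were chosen by name from a list of 1544 sites bound by both RevErb proteins. Every site that the authors assigned to one of them was taken, which gave 7 of the 1544 sites and 4 of the 1220 gene IDs that have a site. Arntl had 3 sites, Npas2 had 2, and Clock and Cry1 had 1 each, and all 4 gene IDs matched these symbols in RefSeq. GRO-seq used C57Bl6 bone marrow macrophages with both RevErb genes floxed, with Tie2-Cre (double knockout, DKO) or without it (WT). Nascent transcription of Arntl and Npas2 was about 2-fold higher in DKO than in WT macrophages, in both runs of each genotype. Clock and Cry1 had overlapping runs. In RAW cells, transcription at the 3 Arntl sites was lower where tagged RevErbalpha was present. None of the other 4 sites was lower by as much as 1 on the log2 scale.

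The mammalian clock is a loop of transcription factors. Arntl encodes BMAL1, which pairs with the CLOCK protein, or with its relative NPAS2, and activates genes that carry E-box motifs. Among the activated genes are the Cry and Per genes, whose proteins hold the pair back, and the RevErb genes, whose proteins repress Arntl through response elements called ROREs near its start. The ROREs are also read by ROR proteins, which activate there. Npas2, Clock and Cry1 are likewise known in other tissues as genes with RevErb response elements or RevErb binding.

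The RefSeq promoter windows (mouse build GRCm38.p6) of Arntl and Cry1 are shown here because each holds a motif by which the clock is known to act. A window runs from 250 bases before to 50 bases after a listed start, and motifs were searched on both strands. Capitals mark, in Arntl (chr7:113207261-113207560, plus strand), the letters TAGGTTA and TAGGTCA, forms of the RORE core, and in Cry1 (chr10:85185005-85185304, minus strand) the E-box CACGTG. Each sequence reads 5′ to 3′ along its gene.
Arntl: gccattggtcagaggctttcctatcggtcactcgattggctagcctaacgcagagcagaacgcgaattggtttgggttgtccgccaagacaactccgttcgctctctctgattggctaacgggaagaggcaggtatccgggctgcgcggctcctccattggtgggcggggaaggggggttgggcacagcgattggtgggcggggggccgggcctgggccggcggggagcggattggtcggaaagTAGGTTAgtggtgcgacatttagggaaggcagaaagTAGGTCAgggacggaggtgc
Cry1: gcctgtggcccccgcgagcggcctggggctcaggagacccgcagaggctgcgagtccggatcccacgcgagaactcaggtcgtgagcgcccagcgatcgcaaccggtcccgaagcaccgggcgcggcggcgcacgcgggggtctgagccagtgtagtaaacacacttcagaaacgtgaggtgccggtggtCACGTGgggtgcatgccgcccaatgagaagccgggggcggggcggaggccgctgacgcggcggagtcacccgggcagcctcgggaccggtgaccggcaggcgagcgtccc
TAGGTCA lies 31 to 37 bases downstream of the second listed Arntl start, counting that start as 1, and TAGGTTA reaches from 6 bases before it onto the start itself. TAGGTCA occurs in 2.61% of 32851 RefSeq windows, and the looser form TAGGTNA, which includes both and was added after the sequence had been read, in 8.29%. Both Arntl matches are on the plus strand. CACGTG, found in 7.15% of windows, lies 60 to 55 bases before the Cry1 start. The shorter core AGGTCA, part of TAGGTCA and found in 16.3% of windows, occurred in that Arntl window and in 1 of 3 Clock windows. In the Clock window it was on the strand opposite to the gene, from 119 to 114 bases before the start. A direct repeat of AGGTCA with 2 bases between occurred in no window of the 4 genes and in 3 of the 32851. The only Npas2 window held none of these motifs. Sequence under the bound sites themselves was not used, because the sites are on build mm9, and whether the authors' starts are those of RefSeq was not tested.

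Binding was measured by ChIP-seq in RAW cells, a macrophage line from mouse (C57Bl6 background in the labels), that expressed RevErbalpha or RevErbbeta with a biotin tag, and a library from cells with only the biotin ligase BirA served as background. The column of that library is named BirA-input, so it may hold an input in place of a pull-down. 5'GRO-seq, which reads capped 5' ends of nascent RNA, was run in RAW cells with tagged RevErbalpha and in control RAW cells (BTEV-Ctrl). GRO-seq, a run-on assay of RNA under synthesis, was done in DKO macrophages grown from C57Bl6 bone marrow and in WT ones. Both were RevErbalpha flox/flox and RevErbbeta flox/flox, and the DKO cells carried Tie2-Cre in addition. Tie2-Cre acts in blood and endothelial lineages. The tagged proteins were expressed in a cell line in addition to its own, so these cells model gain and the DKO cells model loss. The labels name 15 samples, 1 per group, of which 7 were used. ChIP-seq has 3 runs per RevErb and gene-level GRO-seq 2 runs per genotype, here counted as repeat runs of 1 sample. No difference between conditions therefore has a replicate check or a p-value. Totals were 598490 to 5276592 tags for RevErb runs, 10548880 for BirA, 7238710 and 18708148 for tagged and control 5'GRO-seq, and 34852907 to 46649008 for the gene-level GRO-seq runs. The file headers also list treated RAW libraries, and the columns do not say whether any ChIP-seq run was treated. A list of 12 macrophage marker symbols held older and newer names of some genes (Emr1 and Adgre1, Sfpi1 and Spi1). Of these symbols, 4 are among genes with a site, and all 4 had gene-level GRO-seq signal in every run. Csf1r, the M-CSF receptor gene, had log2 values of 12.52 and 12.71 in DKO runs and 12.71 and 12.33 in WT runs. Fcgr1, an Fc receptor gene, had 10.33 and 10.46 in DKO runs and 10.67 and 10.31 in WT runs, and Cd14, a co-receptor gene for lipopolysaccharide, had 9.27 and 9.25 in DKO runs and 9.17 and 9.05 in WT runs. Cx3cr1, the fractalkine receptor gene, had 10.24 and 10.4 in DKO runs and 8.19 and 9.16 in WT runs. DKO minus WT was 0.095 for Csf1r, -0.095 for Fcgr1, 0.15 for Cd14 and 1.645 for Cx3cr1. The runs of Csf1r and Fcgr1 overlapped between genotypes. The difference was thus much larger for Cx3cr1 than for the others, and all 4 are genes with a RevErb site. The part of macrophage state in the differences of the clock genes was not tested. None of 4 endothelial, 4 lymphocyte and 3 fibroblast markers has a row, since gene values are given only for genes with a site.

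The strongest binding at these genes was at the Arntl start. The site lies on chr7:120350968-120351124 (mm9), centred 67 bp downstream of the authors' gene start, and was in the authors' class with H3K4me3 above H3K4me1, a promoter-like balance of histone marks. Its RevErbalpha values were 6.86, 8.70 and 8.12 (log2 tags per 10000000 in a window of 157 bp), its RevErbbeta values 9.64, 8.28 and 9.82, and its BirA value 0.79. All 6 RevErb runs were above BirA, at a site taken from a list that was called for binding. By the mean of both proteins, 8.57, it ranked 13 of 1544 sites and 1 of the 206 sites within 2 kb of a start. By RevErbbeta alone it ranked 5.

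Upstream of Arntl, 2 weaker sites carried enhancer marks. The nearer, 21279 bp before the start (chr7:120329622-120329778), was in the intergenic enhancer class and had RevErbalpha values of 5.08, 6.75 and 6.94, RevErbbeta values of 5.72, 6.90 and 5.93 and a BirA value of 0.73. The farther, 62917 bp before the start (chr7:120287984-120288140), was in the enhancer class not marked intergenic and had RevErbalpha values of 4.43, 6.44 and 5.93, RevErbbeta values of 4.83, 6.21 and 4.81 and a BirA value of 0.83. Means of both proteins were 8.57 at the start, 6.22 at the nearer and 5.44 at the farther upstream site, and the upstream sites ranked 354 and 852 of 1544. The lowest run at the start, 6.86, lay within the range of the nearer upstream site, whose highest run was 6.94. Run by run, however, the start exceeded the nearer upstream site in each of the 6 runs.

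Npas2, which encodes a CLOCK relative that can pair with BMAL1, had a strong site near its start and a weak one farther in. The site 1401 bp before the start (chr1:39249638-39249794, class with H3K4me3 above H3K4me1) had RevErbalpha values of 6.14, 8.62 and 7.84, RevErbbeta values of 8.0, 7.71 and 8.63 and a BirA value of 0.16. It ranked 39 of 1544 sites and 7 of the 206 near a start. The site 62429 bp after the start (chr1:39313468-39313624, enhancer class) had RevErbalpha values of 4.71, 2.95 and 6.68, RevErbbeta values of 4.57, 5.43 and 5.23 and a BirA value of 1.58. It was the weakest of the 7 at rank 1260, and its RevErbalpha run 2 value stands for about 0.459 tags, while the deeper BirA library held about 2.09 there.

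Clock, the partner of BMAL1, and Cry1, a repressor of the pair, each had 1 site. The Clock site, 532 bp after the start (chr5:76732963-76733119, class with H3K4me3 above H3K4me1), had RevErbalpha values of 5.82, 6.18 and 5.99, RevErbbeta values of 5.87, 7.19 and 6.51 and a BirA value of 0.25, rank 341. The Cry1 site, 23132 bp after the start (chr10:84624589-84624745, enhancer class), had RevErbalpha values of 5.45, 8.39 and 7.50, RevErbbeta values of 8.18, 7.25 and 8.52 and a BirA value of 1.81. It ranked 57 of 1544, with a mean of both proteins of 7.55, against 7.82 at the Npas2 site before the start.

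The runs of RevErbalpha and RevErbbeta overlapped at all 7 sites. The share of all sites where they overlap was not computed, so the overlap is not read as a trait of these sites. With 3 runs per protein, overlap also does not show equal binding. The largest difference of means, RevErbalpha minus RevErbbeta, was -1.35 at the Arntl start, with 7.89 ± 0.94 for RevErbalpha and 9.25 ± 0.84 for RevErbbeta (SD of 3 runs of 1 sample each). RevErbbeta was higher at 5 of the 7, against 66.1% of all sites. RevErbalpha runs 2 and 3 and RevErbbeta run 3 were shallow: at the farther upstream Arntl site they held about 5.86, 3.59 and 2.11 tags. For 3 of the 4 genes, all but Cry1, a site lay within 2 kb of the start, against 16.2% of all gene IDs.

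**Figure D1:**
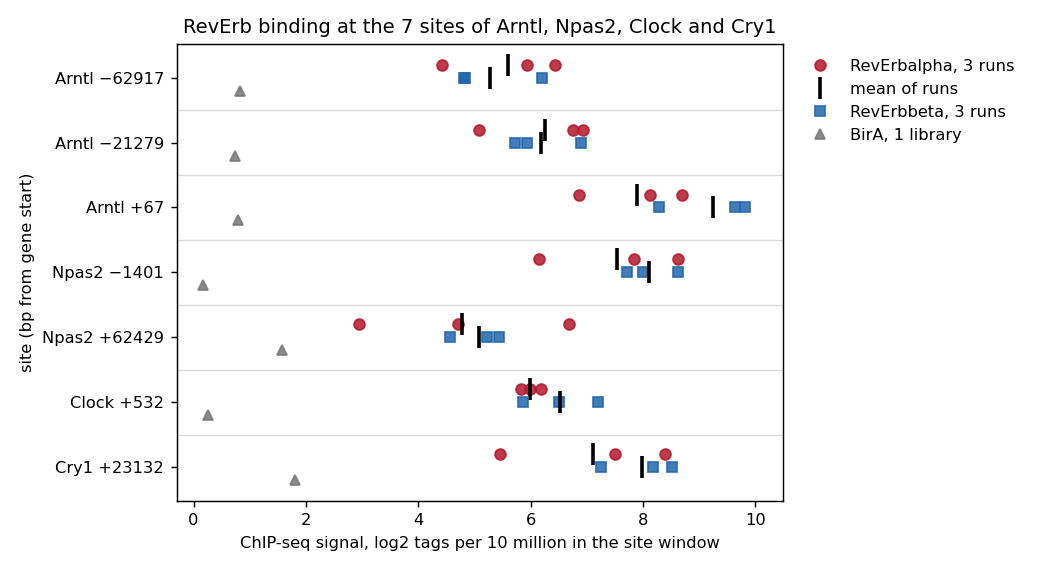
ChIP-seq signal (horizontal axis, log2 tags per 10000000 in 157 bp) at each of the 7 sites (rows, named by gene and distance from its start in bp). Circles are RevErbalpha runs, squares RevErbbeta runs, bars their means and triangles the BirA library; the Arntl start has the highest means, 7.89 and 9.25, and no BirA value exceeds 1.81.

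The 5'GRO-seq libraries addressed whether transcription started at these sites differs when RevErbalpha is added. All 3 Arntl sites had less signal in RAW cells with tagged RevErbalpha than in control cells. The nearer upstream site, the most transcribed of the 3, had 5.10 in tagged RevErbalpha cells and 6.94 in control cells (log2 tags per 10000000 in 500 bp), a difference of -1.84 or 3.58-fold less. Those values stand for about 24.1 and 230 tags. At the start the values were 3.91 in tagged RevErbalpha cells and 5.29 in control cells, a difference of -1.38 that rests on about 10.2 and 71.9 tags. The farther upstream site had 1.54 in tagged RevErbalpha cells and 4.0 in control cells, a difference of -2.46, from about 1.4 and 28.3 tags. Among Arntl sites the difference was thus not in the order of binding: the most weakly bound had the most negative value and the most strongly bound the least negative. Adding 10 instead of 1 ahead of the logarithm, which lessens the weight of low values, gave differences of -1.61 at the nearer upstream site, -1.07 at the farther one and -1.002 at the start. The nearer upstream site then had the most negative value, so the order of the Arntl sites depended on the constant.

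None of the other 4 sites was lower by 1 or more. The Npas2 site after the start and the Clock site were transcribed at levels like those of Arntl sites and had nearly equal values, 6.62 in tagged RevErbalpha cells and 6.69 in control cells for Npas2, and 5.86 in tagged RevErbalpha cells and 5.91 in control cells for Clock. The strongly bound Npas2 site before the start had almost no 5'GRO-seq signal, 0.53 in tagged RevErbalpha cells and 0.98 in control cells, which is about 0.322 and 1.83 tags, so a difference was not detectable at this depth. The Cry1 site had 2.06 in tagged RevErbalpha cells and 0.21 in control cells, a difference of 1.85 in the other direction. It rests on about 2.3 and 0.296 tags and shrank to 0.38 with 10 added. Counting the 7 sites, 3 were lower by 1 or more, where 20.0% of all 1544 sites were, and 1 was higher by 1 or more, where 4.92% of all sites were. The median difference was -0.45 over the 7 sites and -0.23 over all sites. The former is the value of the Npas2 site before the start, which had almost no signal. Each condition was 1 library, and the tagged library had the lower total.

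**Figure D2:**
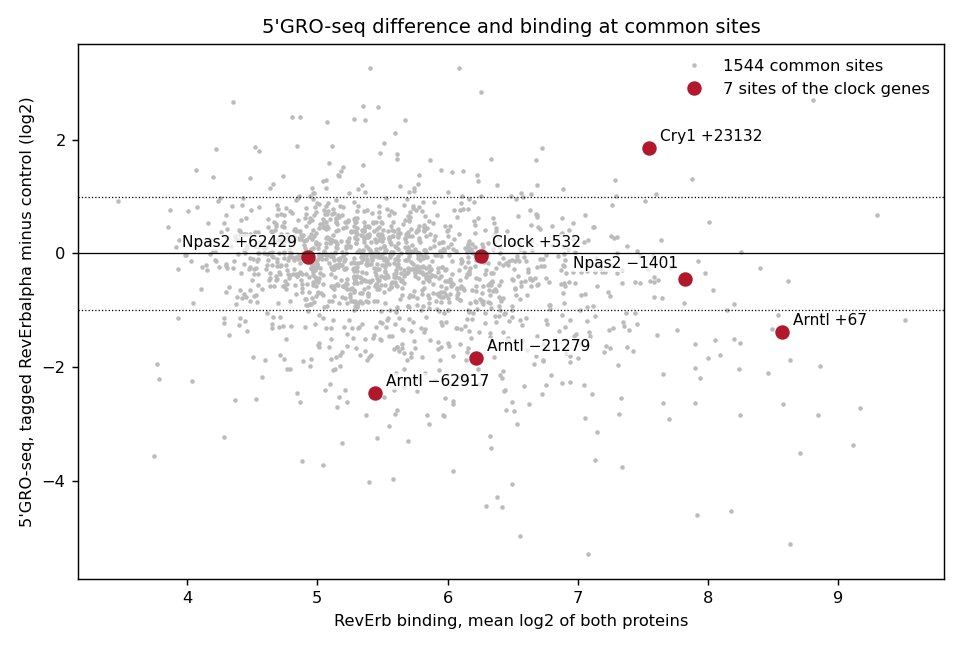
Difference in 5'GRO-seq signal between tagged RevErbalpha and control RAW cells (vertical axis, log2) against RevErb binding (horizontal axis, mean log2 of both proteins) for 1544 common sites in grey and the 7 clock gene sites in red, with dotted lines at 1 and -1. The 3 Arntl sites lie below -1 at bindings from 5.44 to 8.57, while the Cry1 site lies above 1.

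In marrow macrophages, GRO-seq signal differed most at the Npas2 site before the start and at the nearer upstream and start sites of Arntl. The Npas2 site before the start had 2.45 in DKO and 1.095 in WT cells (log2 signal, 1 value per genotype), a difference of 1.355. At the nearer upstream Arntl site the values were 2.205 in DKO and 1.075 in WT cells, a difference of 1.13, and at the Arntl start they were 3.615 in DKO and 2.685 in WT cells, a difference of 0.93. The farther upstream Arntl site had little signal, 0.40 in DKO and 0.58 in WT cells. Of these 2 upstream Arntl sites, both with a negative 5'GRO-seq difference, only the nearer had more GRO-seq signal in DKO cells. With so little signal at the farther site and 1 value per genotype, whether the 2 sites differ was not tested.

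At the Clock site the values were 4.135 in DKO and 3.63 in WT cells, a difference of 0.505, while runs of the whole gene overlapped between genotypes. The Cry1 site had 1.62 in DKO and 1.315 in WT cells, and the Npas2 site after the start 1.94 in DKO and 1.79 in WT cells. Of the 7 sites, 2 were higher by 1 or more, where 3.37% of all sites were, and none was lower by 1 or more, where 2.2% were. The median difference was 0.505 over the 7 sites and 0.03 over all. Signal at these sites was low, and the values carry no run spread and no tag totals. With 10 added before the logarithm, the differences at the Npas2 site before the start, the nearer upstream Arntl site, the Arntl start and the Clock site were 0.38, 0.29, 0.46 and 0.31. Signal at a site downstream of a start includes RNA of the gene itself, and the table does not separate strands.

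**Figure D3:**
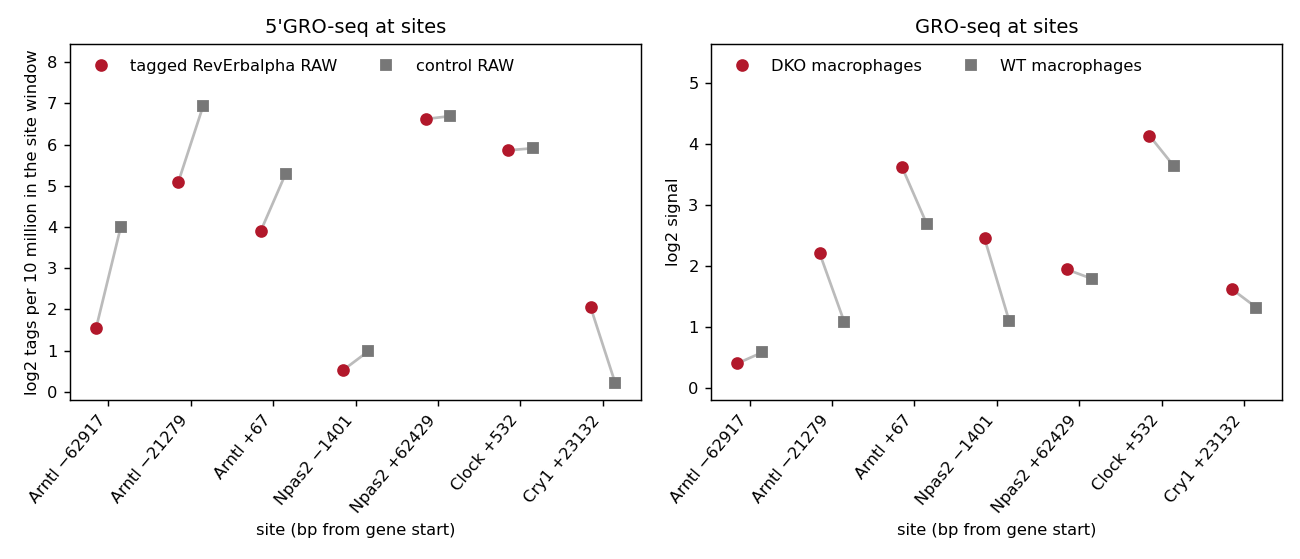
Nascent transcription at the 7 sites, named by gene and distance from its start in bp: on the left 5'GRO-seq (log2 tags per 10000000 in 500 bp) in tagged RevErbalpha cells (red circles) and control RAW cells (grey squares), on the right GRO-seq (log2 signal) in DKO (red circles) and WT macrophages (grey squares). Lines join the values of 1 site; at the nearer upstream site and the start of Arntl the red circle is below the square on the left and above it on the right.

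Over the whole gene, GRO-seq compared RevErb loss with the floxed control. Arntl had log2 signals of 11.37 and 11.25 in DKO runs and 10.17 and 10.31 in WT runs. Both DKO runs lay above both WT runs, as they did for 18.4% of all gene IDs, and the smallest difference between a DKO and a WT run was 0.94. The difference of means was 1.07, or 2.1-fold, against a wider range of 0.14 between the 2 runs of 1 genotype. That range is narrow beside the SD of run differences over all gene IDs given below. Npas2 had 10.38 and 10.34 in DKO runs and 9.47 and 9.30 in WT runs. Again the runs did not overlap, with a difference of 0.975, or 1.97-fold, and a smallest run-to-run difference of 0.87.

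The 2 other genes had overlapping runs. Clock had 11.11 and 10.93 in DKO runs and 11 and 11.08 in WT runs, a difference of -0.02. Cry1 had 8.06 and 7.70 in DKO runs and 7.63 and 7.89 in WT runs, a difference of 0.12. For Cry1 the runs of 1 genotype lay up to 0.36 apart, and single pairs of a DKO and a WT run differed by -0.19 to 0.43, so a difference of that size was not detectable. For Clock the pairs differed by -0.15 to 0.11. Calling a gene higher when its difference was at least 0.5 and its DKO runs both exceeded its WT runs, 2 of the 4 genes were higher, where 1.97% of all 1220 gene IDs were. None was lower by the same rule, where 0.738% were. Arntl ranked 6 and Npas2 8 among all gene IDs by difference, and the median over all was 0.035. Over all gene IDs, the difference between runs of 1 genotype had an SD of 0.338 in WT and 0.299 in DKO. Leaving out any 1 run left Arntl between 1.0 and 1.14 and Npas2 between 0.89 and 1.06. Levels are not compared between genes, because the table does not say whether they are per length. The values also do not tell fewer transcribing cells from less RNA per cell.

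**Figure D4:**
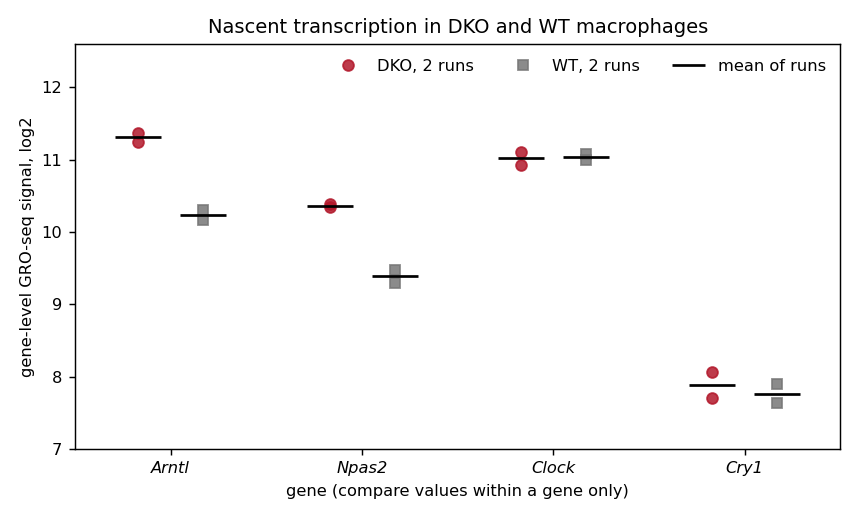
Gene-level GRO-seq signal (log2) in the 2 DKO runs (red circles) and the 2 WT runs (grey squares) of each gene, with bars at the means. The genotypes are apart for Arntl, with means of 11.31 and 10.24, and Npas2, with 10.36 and 9.385, and overlap for Clock and Cry1.

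**Figure D5:**
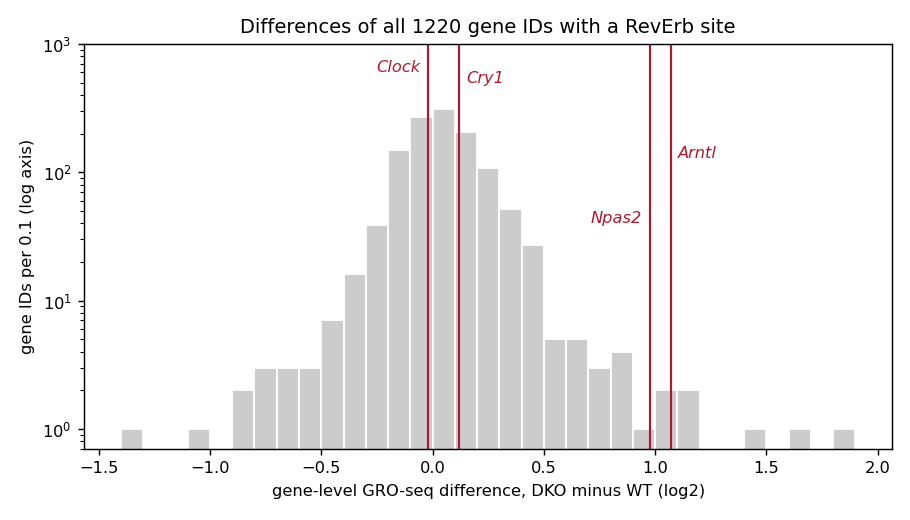
Number of gene IDs (vertical log axis) by gene-level GRO-seq difference between DKO and WT macrophages (horizontal axis, log2, in steps of 0.1) for all 1220 gene IDs with a RevErb site. Red lines mark the 4 clock genes: Arntl at 1.07 and Npas2 at 0.975 lie in the upper tail, and Clock at -0.02 and Cry1 at 0.12 in the bulk.

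Setting the readouts side by side, the 4 genes did not fall in 1 order. Arntl had the strongest start site, lower 5'GRO-seq with tagged RevErbalpha at all 3 sites and a higher gene signal in DKO cells. Npas2 had a strong site near its start and a higher gene signal in DKO cells, but neither of its sites was lower by 1 or more in 5'GRO-seq, and at the site near its start a difference was not detectable. Cry1 had a site that was bound more strongly (7.55, mean of both proteins) than either upstream Arntl site, and no difference in gene signal beyond its runs. Clock had a start site with binding of 6.26, close to the 6.22 of the nearer upstream Arntl site, with nearly equal 5'GRO-seq values at the site and overlapping gene-level runs. RAW cells and marrow macrophages are different cells, so each comparison stands on its own controls.

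Among 914 other gene IDs with a level above the lower quartile, the 3 whose run values were most like those of Arntl were Npas2, Slc15a3 and Slc7a8, at distances of 0.246, 0.381 and 0.583. The distance is Euclidean over the 4 runs, that is 2 samples, with each gene centred on its own mean. For Npas2 they were Slc15a3, Arntl and Arhgap25, at 0.142, 0.246 and 0.427. Slc15a3 had 10.35 and 10.31 in DKO runs and 9.61 and 9.29 in WT runs. Arntl and Npas2 were thus each among the other's closest genes, in a measure that the size of the difference dominates.

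Of 24 other clock genes on a list, 4 had a common site and so a gene value, and 20 are not analysed here. Nr1d1, the gene of RevErbalpha itself, was called higher, with 9.44 and 9.56 in DKO runs and 7.91 and 7.48 in WT runs. This value covers the whole gene and does not check whether its floxed part was removed. The other 3 were not called in either direction. Per1, a repressor of the BMAL1 pair, had 8.68 and 9.05 in DKO runs and 8.84 and 8.47 in WT runs. Arntl2, a relative of Arntl, had 6.90 and 6.27 in DKO runs and 6.67 and 6.78 in WT runs, and Bhlhe40, a repressor at E-boxes, had 7.94 and 7.96 in DKO runs and 8.25 and 8.02 in WT runs. At the 6 sites of these 4 genes, 5'GRO-seq was lower by 1 or more with tagged RevErbalpha at 3, where 20.0% of all sites were. All 3 were sites of Nr1d1, with differences of -4.53, -4.47 and -1.43. The Per1 site had -0.63, and the Arntl2 and Bhlhe40 sites 0.42 and 0.39. Arntl and Nr1d1 were thus the clock genes with a site whose every site was lower by 1 or more. The share of all gene IDs for which this held was not computed, and the farther upstream Arntl site held about 1.4 tags in tagged cells. Arntl, Nr1d1 and Npas2 were called higher in DKO cells, where 1.97% of all gene IDs were. A link between these readouts was not tested.

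The neighbouring genes with a site were looked up by position after the values were known, and neither was called higher or lower in DKO cells. Btbd10, whose site lies 170694 bp from the Arntl start site, had 9.99 and 9.97 in DKO runs and 10.15 and 10.31 in WT runs. Both DKO runs lay below both WT runs, with a difference of means of -0.25. The Btbd10 site had a 5'GRO-seq difference of -0.33. Pdcl3, whose site lies 167515 bp from the Npas2 site before the start, had 8.69 and 8.48 in DKO runs and 8.09 and 8.49 in WT runs. The Pdcl3 site had a 5'GRO-seq difference of 0.66, from low values of 0.81 in tagged RevErbalpha cells and 0.15 in control cells. No other common site lay within 250 kb of the Clock or Cry1 site.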

How the data were processed

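The series measured RevErb binding and nascent transcription in mouse macrophages. The submitters' processing notes name build mm9, the aligner Bowtie 0.12.7 and HOMER, without settings. Site values were deposited as log2 of tags per 10000000, per the file headers, counted in windows of 157 bp for binding and 500 bp for capped 5' ends. The scaling of the deposited log2 GRO-seq values was not given in the sources used here. At low levels the values did not lie on steps of whole tags, so they were not treated as counts. Tag numbers are approximate, computed as 2 to the power of the value, minus 1, divided by the header's scaling factor, and may include a part below 1 tag. Distances, classes and assigned genes are the authors'.

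Runs were averaged on the log2 scale, and differences, ranks and calls were computed over all 1544 sites or 1220 gene IDs with Python 3.11.15, numpy 2.4.6 and pandas 2.3.3. The gene rule was tested on simulated data. A site was called at a difference of 1, a gene at 0.5 with runs not overlapping. No test was made, since each group has 1 sample. The members, the lists of genes and motifs and the size rules were chosen with earlier results of these data known, and named genes are the members, the listed clock genes with a site, and the 3 gene IDs nearest to Arntl and to Npas2. Alternatives were runs left out, only the deeper runs, other sizes, another added constant and subtraction of the median.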

Additional observations from a re-analysis of the deposited data

How the results depend on the processing

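No paired analysis was possible because each group has 1 sample. Arntl and Npas2 kept their sign with any run left out and with the median of all gene IDs subtracted, and Clock and Cry1 took either sign over these settings, from -0.11 to 0.07 and from -0.06 to 0.30. With 10 added before the logarithm, the GRO-seq differences at sites were -0.024, 0.293 and 0.462 at the far upstream, near upstream and start sites of Arntl, 0.377 and 0.043 at the Npas2 sites before and after the start, 0.313 at Clock and 0.072 at Cry1, so none of the 7 reached 1. The 3 Arntl sites stayed lower by 1 or more in 5'GRO-seq under this setting, the start only just, at -1.002. With RevErbalpha run 1 alone, its only deep run, RevErbalpha binding was 4.43, 5.08 and 6.86 at the Arntl sites. It was 6.14 and 4.71 at the Npas2 sites before and after the start, 5.82 at Clock and 5.45 at Cry1. Clock was thus above Cry1 in that run, while the RevErbalpha mean of 3 runs was 5.997 at Clock and 7.113 at Cry1. Genes called higher in DKO were 75 of all gene IDs at a size of 0.3, 7 at a size of 1 and 7 above the lower quartile of level, against 24, and genes called lower 23, 2 and 1, against 9. Of the 4 clock genes, 1 (Arntl) was called at a size of 1. Sites called lower with tagged RevErbalpha were 561 of all sites at a difference of 0.5 and 181 with 10 added, against 309. The limits are 1 sample per group and an unknown scale of the GRO-seq values. In 5'GRO-seq, values were near 0 or 1 tag at the Cry1 site and the Npas2 site before the start. The far upstream Arntl site held about 1.4 tags in tagged cells.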
